A study of Mus musculus with 4 samples.

Results

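Each whole-blood library listed, for every microRNA (miRNA) locus, a read count and the genomic window of the mature miRNA it was counted in. At 59 mouse miRNA loci that window was not the same in every library, and these loci are described here. They were chosen from the window coordinates alone: the locus was listed under its mouse miRNA name in at least 2 of the 4 libraries, on the same chromosome and strand, and its windows were not all identical. Of 374 annotated loci, 333 were listed in at least 2 libraries, and 274 of those had identical windows. The 59 were split by how far their windows overlapped. In 45 the windows shared at least 50% of the shorter one and only the ends were shifted, while in 14 some windows lay on the other arm of the hairpin. No locus lay near that boundary, since the lowest overlap among the 45 was 90.5% (miR-3060 and miR-8118) and the windows on opposite arms shared 0.0%. Because the windows chose the loci, the windows are described without a test, and only the read counts are tested.

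The libraries came from Balb/c mice 180 days old, 2 from control animals and 2 from animals exposed to cadmium, a toxic heavy metal. No source used here gives the cadmium dose, its duration or the sex, or states whether the 2 libraries of a group came from separate animals. The p-values thus measure only how far these libraries scatter, and that scatter may be technical. Total small RNA of whole blood was sequenced, so fewer cells of a type and less miRNA per cell cannot be told apart. The annotated loci held 35244119 and 24622926 reads in the controls and 14383852 and 15565712 with cadmium, so both control libraries were deeper than both cadmium libraries, and depth and group cannot be told apart. Of 8 erythroid marker loci, 7 were listed in every library and summed to 622000 and 596000 CPM (reads at a locus scaled to a library of 1000000 reads) in the controls and 500000 and 514000 with cadmium. This erythroid sum fell mainly through miR-486, with 261100 and 245100 CPM in the controls and 161400 and 173100 with cadmium. miR-144 was also lower, at 18590 and 13670 against 10740 and 10820 CPM. Each miR-16 locus was only slightly lower, at 131500 and 134200 against 127900 and 130800 CPM. So was miR-22, at 31210 and 32330 against 30240 and 29150 CPM. Levels of both miR-92a loci overlapped between the groups. miR-16-1 and miR-16-2 had almost the same CPM in every library. The erythroid sum can thus hold the same reads at both and is not a share of the library. The 5 lymphocyte marker loci summed to 8600 and 6390 CPM in the controls and 4300 in each cadmium library. That sum repeats reads, since miR-181a-1 and miR-181a-2 share their counts, as do miR-181b-1 and miR-181b-2. It is thus not a share of the library. Of the myeloid markers, 4 of 5 were listed in every library, with sums from 5470 to 6230 CPM, most of it miR-142 (5060 to 5963 CPM). The other listed myeloid markers were higher in both cadmium libraries: miR-24-1 and miR-24-2, which share their counts, had 62.9 and 70.9 CPM in the controls and 142 and 145 CPM with cadmium, and miR-23a is described with the shifted ends. The 2 liver markers went opposite ways. miR-192 had 1819 and 1405 CPM in the controls and 1420 and 1302 with cadmium, while miR-122 had 0.509 CPM in control 1, was not listed in control 2 and had 6.31 and 6.71 CPM with cadmium. Of the muscle markers, miR-133b had 0.255 CPM in control 1, was not listed in control 2 and had 2.47 and 2.06 CPM with cadmium. The more abundant miR-133a-1 and miR-133a-2, equal in CPM, each had 34.2 and 13.1 CPM in the controls and 43.0 and 41.1 with cadmium. The epithelial markers did not move together. miR-205 had 8.66 and 6.33 CPM in the controls and 0.742 and 1.06 CPM with cadmium. By contrast, miR-141 had 171 and 255 CPM in the controls and 195 and 171 with cadmium. miR-200c had 13.6 and 32.4 CPM against 25.2 and 26.6, and miR-200b had 0.923 and 0.713 against 0.927 and 1.88. Sums of the epithelial list overlapped, at 194 and 294 CPM in the controls and 221 and 201 with cadmium. All markers listed in at least 2 libraries had identical windows except miR-23a, which is one of the loci described here. The part of these shifts in the results was not tested.

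A miRNA is cut from a hairpin precursor, first by Drosha in the nucleus and then by Dicer in the cytoplasm, which leaves a short duplex with a strand from each hairpin arm. One strand is usually kept in an Argonaute protein, where it guides the repression of messenger RNAs, and the arm that is kept can differ between tissues. Pairing to targets rests mainly on the seed, bases 2 to 8 from the 5′ end, so a shifted 5′ end gives another seed, while a shifted 3′ end leaves the seed as it was. Variants with shifted ends are called isomiRs, and 3′ variants are the more common kind.

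The sequences that follow show what the different windows hold. They are in DNA letters, 5′ to 3′, from the deposited lists except where RefSeq is named (GRCm38.p6, the mm10 assembly). The first set is shown because the arm, and with it the seed, differed between libraries. Capitals mark the seed.
miR-350, 5′ arm, both control libraries: aAAGTGCAtgcgctttgggac
miR-350, 3′ arm, both cadmium libraries: tTCACAAAgcccatacactt
miR-219a-1, 3′ arm, both control libraries: aGAGTTGCgtctggacgtcccga
miR-219a-1, 5′ arm, both cadmium libraries: tGATTGTCcaaacgcaattc
miR-467d, 5′ arm, both control libraries: aTAAGTGCgcgcatgtatatg
miR-467d, 3′ arm, both cadmium libraries: aTATACATacacacacctaca
miR-151, 5′ arm, control 1 and cadmium 1: tCGAGGAGctcacagtctag
miR-151, 3′ arm, control 2 and cadmium 2: cTAGACTGaggctccttgagg
miR-7a-1, 3′ arm, control 1: cAACAAATcacagtctgcca
miR-7a-1, 3′ arm, both cadmium libraries: aACAAATCacagtctgccata
miR-7a-1, 5′ arm, control 2 (RefSeq): tGGAAGACtagtgattttgt

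The second set holds loci with shifted 3′ ends, each shown as its longest window, because the window either split the libraries by group (the first 5) or belonged to an abundant locus. Capitals mark the bases that the shortest window lacked.
miR-26b, longer in both cadmium libraries: ttcaagtaattcaggataggT
miR-125a, longer in both cadmium libraries: tccctgagaccctttaacctgTG
miR-1191, longer in both cadmium libraries: cagtcttactatgtagcccTA
miR-148b, longer in both control libraries: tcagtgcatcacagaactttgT
miR-491, longer in both control libraries: agtggggaacccttccatgaggA
miR-93, shorter in control 1 only: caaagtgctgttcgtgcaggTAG
miR-23a, longer in cadmium 2 only: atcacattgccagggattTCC
miR-149, longest in control 1: tctggctccgtgtcttcacTCCC

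The third set holds loci with shifted 5′ ends, shown because the seed moved with the end. Capitals mark the seed of each window.
miR-1843a, control 1 and cadmium 2: tATGGAGGtctctgtctgac
miR-1843a, control 2 and cadmium 1: aTGGAGGTctctgtctgac
miR-3082, control 1 and cadmium 1: cACATGGCactcaactctgcag
miR-3082, control 2 and cadmium 2: aCATGGCActcaactctgcag
miR-5123, all but control 2: gTGTAGATccatatgccatgg
miR-5123, control 2 (RefSeq): tGTAGATCcatatgccatggtgt
miR-3076, cadmium 1: cCGCACTCtggtcttcccttgca
miR-3076, control 2 (RefSeq): cACTCTGGtcttcccttgcag

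Of the 59 loci, 53 were listed in all 4 libraries, 41 with shifted ends and 12 on different arms. The most common arrangement was a single library standing apart. Control 1 alone had another window at 8 loci, control 2 alone at 8, cadmium 1 alone at 6 and cadmium 2 alone at 10. The windows matched within each group and differed between control and cadmium at 8 loci, 5 with shifted ends and 3 on different arms. Control 1 paired with cadmium 1 against the other two libraries at 7 loci, and with cadmium 2 at 1 locus. At 4 loci there were 3 different windows, and at miR-3076 all 4 libraries differed. Of these, miR-450b was 20 nt long in both controls and 22 and 23 nt with cadmium, all with the same 5′ end. Splits by group were thus about as many as splits that put control 1 and cadmium 1 together.

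Taken pair by pair, the 2 control libraries had the same window at 25 of the 53 loci and the 2 cadmium libraries at 26. Between groups the number was 25 for control 1 with cadmium 1, 15 for control 1 with cadmium 2, 20 for control 2 with cadmium 1 and 21 for control 2 with cadmium 2. The pairs within a group therefore did not stand clear of the pairs between groups, since control 1 matched cadmium 1 as often as it matched control 2.

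**Figure D1:**
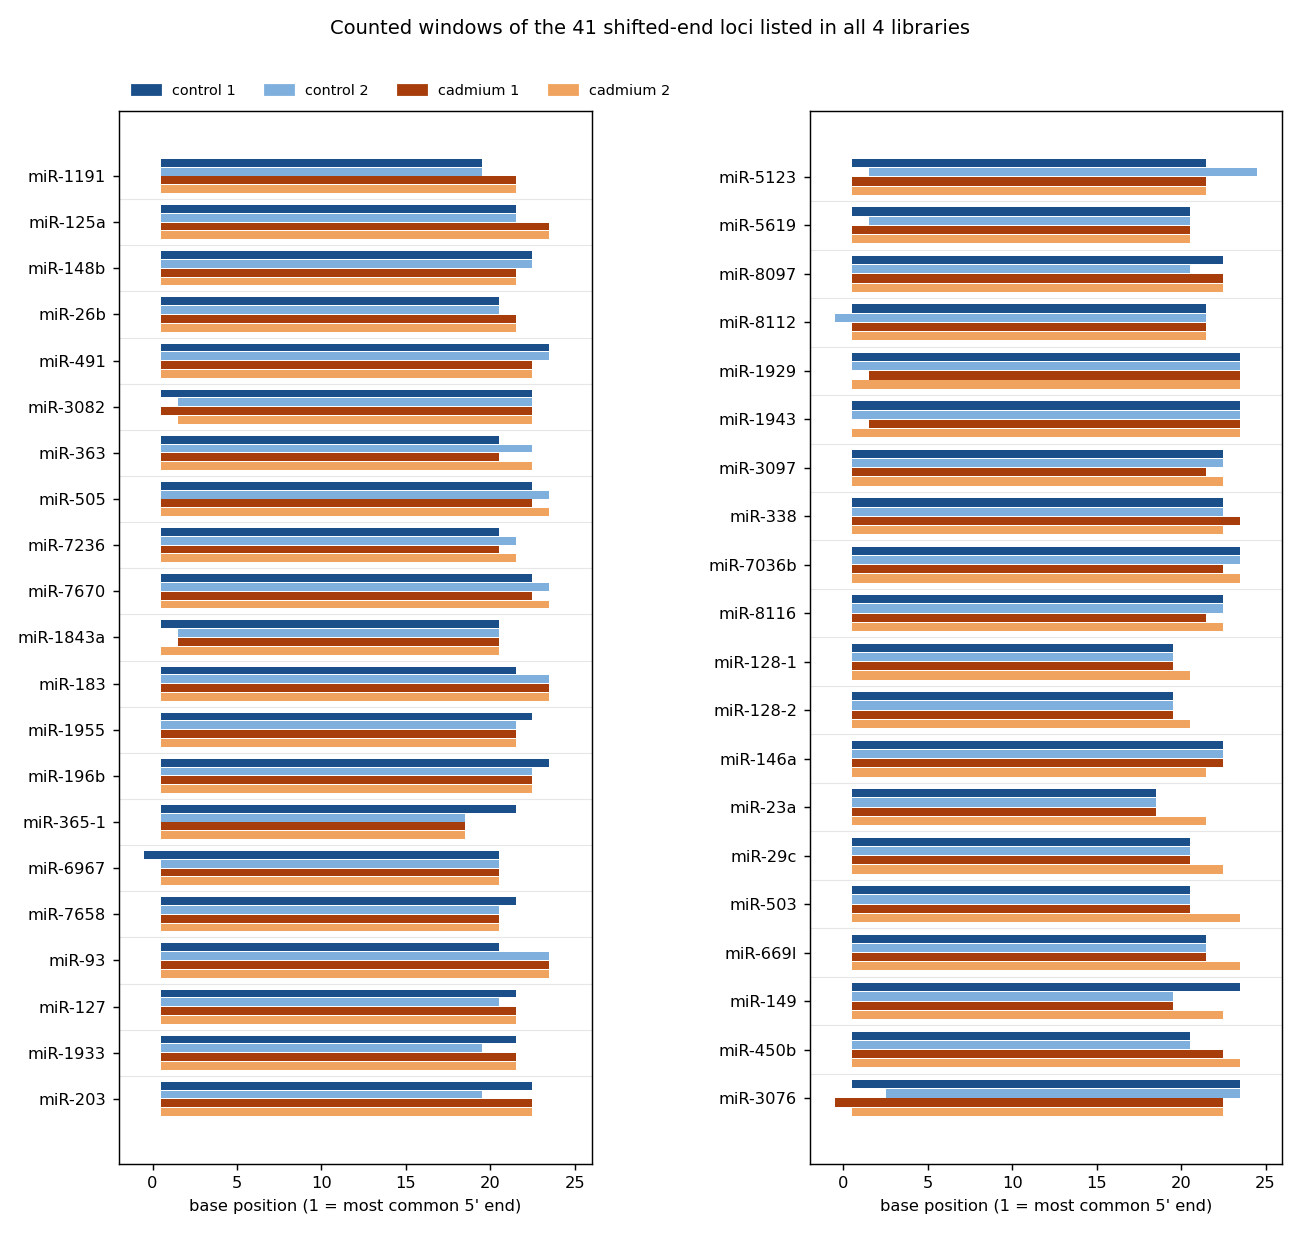
Counted windows of the 41 shifted-end loci listed in all 4 libraries, a bar for each library, along the base position from the most common 5′ end. The 5 loci at the top left (miR-1191 to miR-491) split by group, and most of the others had a single library apart.

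Most shifted ends were 3′ ends. Of the 45 loci, 32 differed at the 3′ end alone, 8 at the 5′ end alone and 5 at both, so the seed stayed the same at 32. The ends lay 1 base apart at 24 loci and 2 or more bases apart at 21, and the widest ranges were 4 bases at the 3′ end and 3 bases at the 5′ end. In the 31 loci whose added 3′ bases could be read, the longer windows held 53 bases that the shortest window lacked. T made up 22 of them (41.5%), A 13 (24.5%), C 9 (17.0%) and G 9 (17.0%). In the 630 bases that the windows of these loci shared, T made up 28.4%, A 22.7%, C 23.8% and G 25.1%. The added bases thus held more T and fewer C and G than the body of the same miRNAs. They are bases of the genome at those positions, and non-templated tails cannot be seen in a window of coordinates.

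RefSeq gave an annotated mature miRNA for 38 of the 41 shifted-end loci listed in all 4 libraries. The windows began at its 5′ end at 35 and 34 of 38 loci in control 1 and 2 and at 32 and 35 in cadmium 1 and 2. They ended at its 3′ end far less often, at 12 and 13 loci in the controls and at 14 and 17 with cadmium. Loci with identical windows showed the same contrast, with 149 of 158 (94.3%) at the annotated 5′ end and 52 of 158 (32.9%) at the annotated 3′ end. The mean window of the 41 loci was 21.17 and 20.90 nucleotides (nt) long in the controls and 21.02 and 21.59 nt with cadmium. Length did not order the libraries by group or by depth: the longest mean was in cadmium 2 and the shortest in control 2, while control 1 was the deepest library and cadmium 1 the shallowest.

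The 5 shifted-end loci that split by group differed only at the 3′ end and kept their seeds. miR-26b lies in an intron of Ctdsp1, a phosphatase gene (mm10, plus strand), and its window was chr1:74394324-74394343 in both controls and chr1:74394324-74394344 in both cadmium libraries. Its level was 5829 and 4835 CPM in the controls and 4024 and 3974 CPM with cadmium, so both cadmium libraries were below both controls. The edgeR log2 fold change, cadmium against control, was -0.41 ± 0.13 (SE), with an adjusted p of 0.0709 in the edgeR quasi-likelihood test. miR-148b shares its seed CAGTGCA with the 3′ arm of miR-152, another of the 59, and lies in an intron of Copz1, a gene of the vesicle coat. Its window was chr15:103285185-103285206 (plus strand) in the controls and a base shorter with cadmium. The levels were 973 and 1047 CPM in the controls and 1309 and 1419 CPM with cadmium. The groups did not overlap, and the log2 fold change was 0.43 ± 0.14 (SE) with an edgeR adjusted p of 0.0730. miR-125a, of a family studied in blood stem cells and immune cells, overlaps an exon of Spaca6 and was 2 bases longer with cadmium (chr17:17830817-17830839, plus strand). It had 23.5 and 11.6 CPM in the controls and 14.3 and 17.4 CPM with cadmium. Its groups overlapped, with a log2 fold change of -0.15 ± 0.35 (SE).

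The other two of these 5 loci passed the edgeR test. miR-491, in an intron of Focad, was counted in chr4:88122057-88122079 (plus strand) in the controls and in a window a base shorter with cadmium. It had 61 and 52 reads in the controls and 109 and 153 with cadmium, which is 1.94 and 2.32 CPM against 6.74 and 9.0 CPM. The longer window was in the controls, where the level was lower. The mean rose from 2.13 ± 0.27 to 7.87 ± 1.60 CPM (SD, n = 2), a log2 fold change of 1.89 ± 0.26 (SE) with an edgeR adjusted p of 0.00322. miR-1191, which overlaps an exon of BC024978, was counted in chr7:27205615-27205633 (plus strand) in the controls and 2 bases further with cadmium. It had 68 and 35 reads in the controls and 60 and 72 with cadmium, or 2.16 and 1.56 against 3.71 and 4.24 CPM. Here the longer window went with the higher level, and the log2 fold change was 1.08 ± 0.26 (SE) with an edgeR adjusted p of 0.0323. This call was lost in the DESeq2 test (adjusted p = 0.0984) and in edgeR without cadmium 1 (adjusted p = 0.172) or without cadmium 2 (adjusted p = 0.24). The windows of these 5 loci were longer with cadmium at 3 (miR-26b, miR-125a, miR-1191) and longer in the controls at 2 (miR-148b, miR-491), so there was no common direction.

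Counts of shifted-end loci were compared between the groups in a fit of all loci on 1 arm. Among the 276 loci tested, 40 (14.5%) passed an adjusted p of 0.05 in edgeR, 22 higher with cadmium (7.97%) and 18 lower (6.52%). All 41 shifted-end loci listed in the 4 libraries were tested and 3 passed (7.32%), 2 higher and 1 lower, against 37 of 235 loci with identical windows (15.7%). At an unadjusted p under 0.05 the shares were 12 of 41 (29.3%) and 67 of 235 (28.5%). The median log2 fold change was 0.14 for shifted-end loci and 0.08 for all loci. Fold changes above 0 were found at 24 of 41 shifted-end loci and at 122 of 235 loci with identical windows. The median size of the change, whatever its sign, was 0.41 for shifted-end loci and 0.38 for loci with identical windows. Beside miR-491 and miR-1191, the third locus to pass was miR-7670, which overlaps an exon of Ubn2. It had 55 and 49 reads in the controls and 15 and 10 with cadmium, or 1.75 and 2.18 against 0.927 and 0.588 CPM. It fell by 1.37 on the log2 scale (SE 0.35, edgeR adjusted p = 0.0378). The call was lost in edgeR with total counts (adjusted p = 0.0701) and upper-quartile scaling (0.0567), without cadmium 1 (0.172) and without cadmium 2 (0.341), and in the DESeq2 test (0.0792). Its window was not split by group, being 22 nt in control 1 and cadmium 1 and 23 nt in the other two libraries. All 3 called loci were below 10 CPM. With only loci of at least 10 CPM tested, 0 of 13 shifted-end loci passed in edgeR, against 27 of all 129 loci tested. At an unadjusted p under 0.05 it was 2 of 13 against 47 of 129, and DESeq2 was not run at that limit. How many passed also changed when a single library was left out, among shifted-end loci and among all loci. With total counts 10 of 41 shifted-end loci passed in edgeR, all higher with cadmium. Of all 276 loci tested 65 then passed, 57 higher and 8 lower.

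**Figure D2:**
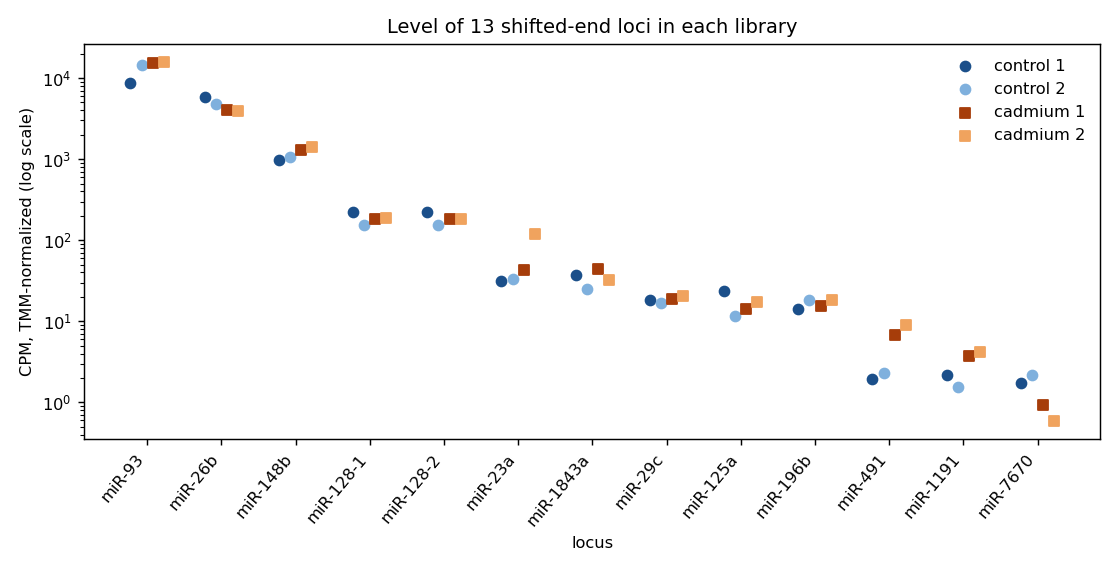
Level in CPM, on a log axis, of the named shifted-end loci in each library, a point for each library. miR-491 and miR-1191 were higher in both cadmium libraries than in both controls and miR-7670 was lower in both, while the 4 values of miR-125a overlapped between groups.

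Apart from miR-26b, miR-148b and miR-125a, 7 loci completed the 10 shifted-end loci of highest mean level, and none of the 10 passed the edgeR test with TMM scaling and all 4 libraries. miR-93 belongs to a cluster within Mcm7, a gene of the DNA replication helicase, and to the family of miR-17. Its window was 23 nt (chr5:138165574-138165596, minus strand) in 3 libraries and 20 nt in control 1. The levels were 8777 CPM in control 1, 14560 CPM in control 2 and 15370 and 15790 CPM with cadmium. The library with the shorter window had the lowest level, and the log2 fold change was 0.42 ± 0.21 (SE, edgeR adjusted p = 0.243). In edgeR miR-93 passed with total counts (log2 0.71, adjusted p = 0.0473) and with upper-quartile scaling (log2 0.63, adjusted p = 0.00405). Its log2 fold change was 0.83 without control 2 but 0.098 without control 1, the library with the shorter window. miR-23a, clustered with miR-27a and miR-24-2 and expressed in myeloid cells among others, was 18 nt (chr8:84208563-84208580, plus strand) in 3 libraries and 21 nt in cadmium 2. It had 31.0 and 33.5 CPM in the controls, 43.3 CPM in cadmium 1 and 119 CPM in cadmium 2. The high value was in the library with the longer window, and the log2 fold change of 1.33 ± 0.43 (SE) had an edgeR adjusted p of 0.0730. It passed in 6 of 13 alternatives, among them the DESeq2 test (adjusted p = 0.02) and edgeR with total counts (adjusted p = 0.0317) or upper-quartile scaling (adjusted p = 1.38e-06). Without cadmium 2 it was 0.42 and did not pass. miR-29c, known for repressing collagen genes, also had its longer window in cadmium 2 (22 nt against 20 nt). Its levels nevertheless stayed close, at 18.3 and 17.0 CPM in the controls and 18.6 and 20.7 CPM with cadmium. miR-196b, encoded among the Hoxa genes, was 23 nt in control 1 and 22 nt elsewhere, with 14.0 and 18.2 CPM in the controls and 15.3 and 18.1 CPM with cadmium. The other 3 of the 10 are miR-128-1, miR-128-2 and miR-1843a.

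miR-128-1 and miR-128-2 are copies on chromosomes 1 and 9, in introns of R3hdm1 and Arpp21, that give the same mature miRNA. The lists held the same count for both in 3 libraries, 7005 and 3431 reads in the controls and 2980 in cadmium 1, all in 19-nt windows. In cadmium 2 both windows were 20 nt and the counts were 3217 and 3120, so the copies moved to the longer window together. They are not independent, and reads of 1 mature sequence could be listed at both. miR-365-1 was 21 nt with 85 reads in control 1, where its copy miR-365-2 was listed with the same count and length. In the other libraries miR-365-1 was 18 nt (53, 54 and 69 reads in control 2, cadmium 1 and cadmium 2) and miR-365-2 was not listed.

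A 5′ end differed at 13 of the 45 shifted-end loci, and with it the seed. Of these, 9 were listed in all 4 libraries, and at none of the 9 did the windows split by group. miR-1843a was the most abundant, with a 20-nt window in control 1 and cadmium 2 (chr12:80391655-80391674, minus strand) and a 19-nt window in control 2 and cadmium 1. It lies in an intron of Dcaf5 and overlaps an exon of Scarna3b, a small noncoding RNA gene on the same strand. Its levels were 37.2 and 25.2 CPM in the controls and 44.5 and 32.4 CPM with cadmium, which overlap. The seed of its longer window, ATGGAGG, is shared with the related locus miR-1843b. Among the windows listed in control 1, cadmium 1 and cadmium 2, no other seed of a shifted 5′ window was found at another locus. Mouse miRNAs outside these lists were not compared. miR-3082 gained a 5′ base in control 1 and cadmium 1, at 6.33 and 5.07 CPM, against 4.82 CPM in control 2 and 4.35 CPM in cadmium 2. miR-5123 moved at both ends in control 2, where it had 7.71 CPM against 3.65 to 5.53 CPM in the other libraries. A single library stood apart by a 5′ base at 5 more: control 1 at miR-6967, control 2 at miR-8112 and miR-5619, and cadmium 1 at miR-1929 and miR-1943. Their counts ran from 10 reads (miR-5619 in cadmium 1) to 99 reads (miR-6967 in control 1). miR-3076 had a different window in each library, with 15 to 32 reads. The last 4 were listed in fewer libraries, miR-6240 in 3 and miR-8118, miR-7084 and miR-3060 in the 2 controls alone, with 9 to 31 reads each. Most of these loci therefore rest on few reads, and the window of each library is the only record of its 5′ end.

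At 3 loci the arm split by group. miR-350, in an intron of Cep170, was counted on the 5′ arm in both controls (chr1:176772380-176772400, minus strand) and on the 3′ arm in both cadmium libraries (chr1:176772344-176772363). The counts were 938 and 374 reads on the 5′ arm in the controls and 1271 and 1136 reads on the 3′ arm with cadmium, or 29.9 and 16.7 against 78.6 and 66.8 CPM. miR-219a-1, whose family is known for its role in oligodendrocytes, overlaps an exon of the long noncoding RNA Gm26940. It changed arms the other way, from the 3′ arm in the controls (chr17:34025009-34025031, minus strand; 138 and 86 reads) to the 5′ arm with cadmium (chr17:34025053-34025072; 148 and 138 reads). miR-467d, of the rodent cluster in an intron of Sfmbt2, was on the 5′ arm in the controls (chr2:10507639-10507659, plus strand; 138 and 62 reads) and on the 3′ arm with cadmium (chr2:10507676-10507696; 24 and 20 reads). The arm that was listed therefore went from 5′ to 3′ at miR-350 and miR-467d and from 3′ to 5′ at miR-219a-1. The lists name only 1 arm for each of these loci in a library, so the reads of the other arm are not known, and the counts of different arms are given with no fold change.

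miR-151 was the most abundant of the loci on different arms. It lies in an intron of Ptk2, the gene of focal adhesion kinase, and had 15250 reads on the 5′ arm in control 1 (chr15:73254856-73254875, minus strand) and 16030 reads on the 3′ arm in control 2 (chr15:73254820-73254840). With cadmium the same split appeared, with 5339 reads on the 5′ arm in cadmium 1 and 9456 on the 3′ arm in cadmium 2. The arm thus differed within each group, at 5339 reads or more in every library. miR-28a, in an intron of Lpp, followed the same order, with 87 and 67 reads on the 5′ arm in control 1 and cadmium 1 and 42 and 53 reads on the 3′ arm in control 2 and cadmium 2. The arms of miR-151, miR-28a, miR-297b, miR-455, miR-466d and miR-467d, which have no entry in the RefSeq table, were read from the order of the windows along the strand.

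Single libraries stood apart at 5 loci. miR-335, in the imprinted gene Mest, was on the 5′ arm in control 1 (48 reads) and on the 3′ arm in control 2, cadmium 1 and cadmium 2 (105, 59 and 100 reads). miR-7653, which overlaps an exon of Tlcd1, was on the 5′ arm in control 2 (23 reads) and on the 3′ arm elsewhere (17 to 29 reads). Cadmium 2 stood apart at the other 3. miR-33, in an intron of Srebf2, a regulator of cholesterol synthesis, had 70, 55 and 56 reads on the 5′ arm in control 1, control 2 and cadmium 1, and 40 reads on the 3′ arm in cadmium 2. miR-297b, of the Sfmbt2 cluster, likewise moved to the 3′ arm in cadmium 2, with 9 to 15 reads in each library. miR-3058, in an intron of Nudt4, did the opposite, with 90, 30 and 44 reads on the 3′ arm and 22 reads on the 5′ arm in cadmium 2.

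The remaining loci on different arms had 3 windows or were listed in fewer libraries. miR-7a-1, in an intron of Hnrnpk, was on the 3′ arm in control 1 (337 reads) and with cadmium (398 and 324 reads, starting 1 base further along) and on the 5′ arm in control 2 (262 reads). Its copy miR-7a-2 was on the 5′ arm in every library and had the same 262 reads in control 2, against 140 in control 1 and 106 and 135 with cadmium. miR-152, in an intron of Copz2, was on the 5′ arm in control 1 (26 reads) and on the 3′ arm in control 2 (12 reads, 18 nt) and with cadmium (40 and 49 reads, 21 nt). miR-455 had 7 reads on opposite arms in the 2 controls, and miR-466d had 21 and 14 reads on the 3′ arm in the controls and 8 on the 5′ arm in cadmium 1. The 3′ windows of miR-297b, miR-466d and miR-467d share the seed TATACAT.

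Over the 12 loci listed in all 4 libraries, the 5′ arm was listed at 8 in control 1, 6 in control 2, 5 in cadmium 1 and 2 in cadmium 2. Both controls listed the 5′ arm at more loci than both cadmium libraries, but the controls differed by 2 loci and the cadmium libraries by 3, more than the 1 locus between control 2 and cadmium 1. The arms matched at 6 of 12 loci in the control pair, 7 in the cadmium pair and 7 between control 1 and cadmium 1, and at 2 to 5 in the other pairs.

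**Figure D3:**
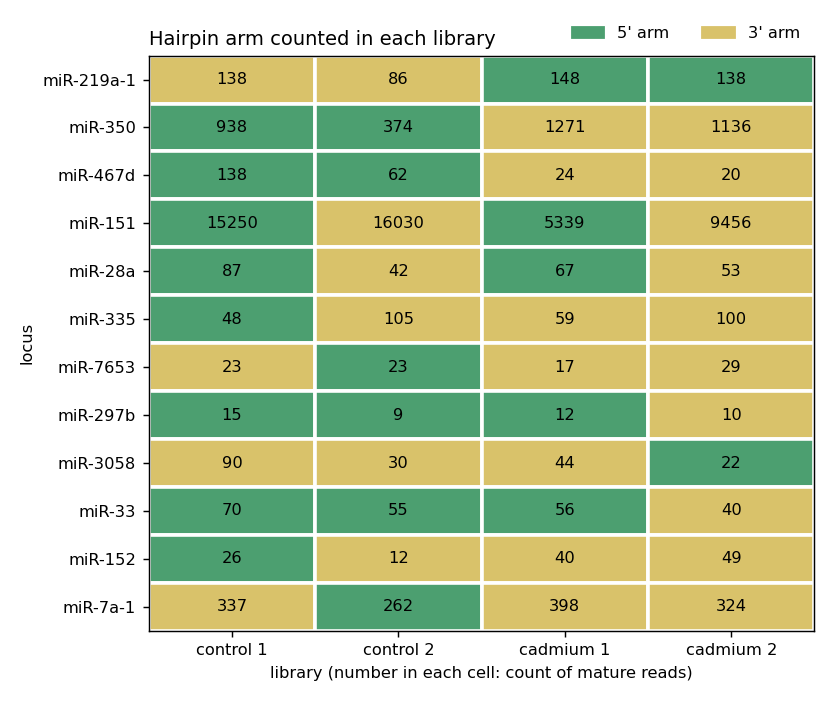
Hairpin arm listed for each of the loci on different arms in each library, with the read count printed in each cell. miR-350, miR-219a-1 and miR-467d changed arms between the groups, and miR-151 and miR-28a between the libraries numbered 1 and those numbered 2.

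Differing windows were more common at low levels. The mean level had a median of 3.12 CPM (0.748 to 13600) over the 41 shifted-end loci and 2.80 CPM (0.552 to 522) over the 12 loci on different arms, against 8.62 CPM over 236 loci with identical windows. Many of those are copies that repeat 1 count, and with a single locus kept from each such set the median of the remaining 182 was 22.3 CPM. With the 289 loci ordered by level in 4 bins of 72 or 73, a window differed at 32.9% of the lowest bin (0.451 to 2.67 CPM), 18.1% and 13.9% of the middle bins and 8.33% of the highest (157 to 210000 CPM). Keeping a single locus from each set of copies gave 33.9%, 28.8%, 20.7% and 6.78%. Of the 53 loci listed in all 4 libraries, 16 had a mean level of at least 10 CPM. These were 4 of the 8 split by group and 3 of the 7 that put control 1 and cadmium 1 together. The 1 locus that paired control 1 with cadmium 2 was another. So were 5 of the 10 at which cadmium 2 stood apart, 2 of 8 for control 1, 0 of 8 for control 2 and 0 of 6 for cadmium 1. The last was 1 of the 4 loci with 3 windows. Read counts are not divided by the window length, which ran from 18 to 23 nt.

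**Figure D4:**
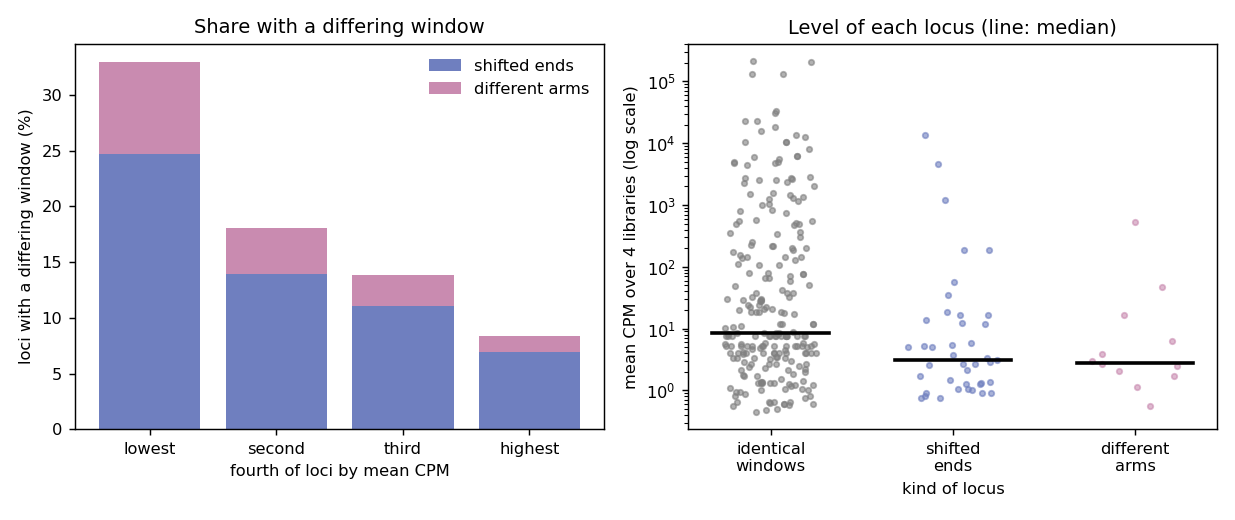
Left, percent of loci with shifted ends or different arms in 4 bins of mean CPM, falling from 32.9% to 8.33%. Right, mean CPM over the 4 libraries, on a log axis, a point for each locus, with medians (lines) of 8.62 for identical windows (22.3 with copies reduced, not drawn), 3.12 for shifted ends and 2.80 for different arms.

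Level and window length were set side by side within each pair of libraries. In the control pair, 22 shifted-end loci had windows of different length, and the library with the longer window had the higher CPM at 18 of them, with a median log2 ratio of 0.33. The longer window was in control 1 at 14 of the 22, while at loci with identical windows control 1 had the higher CPM at 93 of 236 (39.4%). In the cadmium pair the longer window was the higher at 11 of 22, with a median of 0.02. It was in cadmium 1 at 4 of the 22, and cadmium 1 had the higher CPM at 112 of 236 loci with identical windows (47.5%). The control pair thus leaned to the longer window and the cadmium pair as a whole did not. Loci whose lengths differed by 2 or more bases went the same way in both pairs, at 9 of 10 in the controls and 5 of 6 with cadmium, where the longer window was in cadmium 2 at all 6. The exceptions were miR-8097 in the controls and miR-669l with cadmium. At a difference of 3 or more bases the longer window was the higher at 4 of 4 and 3 of 3, with median log2 ratios of 1.35 and 1.17. At a difference of 1 base it was the higher at 9 of 12 and 6 of 16. miR-149, the locus with the widest range of lengths, had 1.46 CPM in a 23-nt window in control 1 and 0.357 CPM in a 19-nt window in control 2. With cadmium it had 0.680 CPM at 19 nt and 1.53 CPM at 22 nt, so within each group the longer window had the higher level. miR-203, known from skin, had 9.96 CPM at 22 nt in control 1 and 2.54 CPM at 19 nt in control 2. Among the 236 loci with identical windows, the log2 ratio of control 1 to control 2 had an SD of 0.55 and that of cadmium 1 to cadmium 2 an SD of 0.29. These are counts of loci within 1 pair of libraries each, so no test was made, and the sources used here do not state whether reads with other ends were counted.

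**Figure D5:**
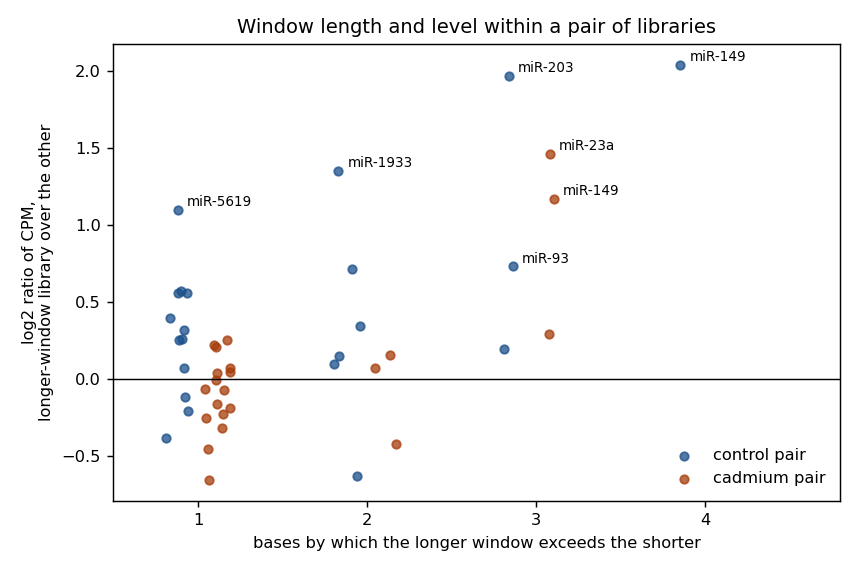
Log2 ratio of CPM, longer-window library over the other library of its group, against the bases by which the window is longer, a point for each shifted-end locus whose lengths differ (points are spread sideways for clarity). At 3 or more bases all 7 points lie above 0, and at 1 base 15 of 28 do.

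By position, 47 of the 59 loci lay inside a protein-coding gene on the same strand, and 12 of those touched an exon in the GENCODE annotation of mm10. The Sfmbt2 cluster held 4 of the 59 (miR-297b, miR-466d, miR-467d, miR-669l), out of 57 of its loci listed in at least 2 libraries, and the 53 of these listed in all 4 libraries held only 14 distinct sets of counts.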

How the data were processed

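The deposited lists give, per the file headers, the number of mature reads of each miRNA (raw counts), its chromosome, strand, mature window and sequence, 1 list for each of the 4 libraries (583 to 954 entries, lowest count 5). Bowtie 0.12.2, DESeq and mm10 are named in the submitters' processing notes without a role. No source used here names the miRNA caller, its rule for choosing a window or the annotation release. An entry marked * with the locus and count of another was merged with it, entries without a mouse miRNA name and 1 unnamed entry holding a total (cadmium 1) were left out, and the sequence column of control 2 was not used, since only 162 of 693 sequences had the length of their window. Windows were matched to RefSeq hairpins at 50 of the 59 loci. Over all annotated loci inside a hairpin, the listed sequence equalled it at 265 of 265, 229 of 229 and 230 of 230 windows in control 1, cadmium 1 and cadmium 2.

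Loci listed in all 4 libraries on 1 arm were fitted with edgeR 4.0.16 (R 4.3.3; TMM, filterByExpr, quasi-likelihood, group only, Benjamini-Hochberg adjustment over 276 loci, 2 residual degrees of freedom); CPM use the same scaling. On data simulated for these 276 loci it called 20.6%, 56.1% and 99.0% of loci changed 1.5-, 2- and 4-fold and 0.655% of unchanged loci. The simulated loci were independent and had the same spread in both groups. The real loci include copies with equal counts, and the control pair scattered more (SD of log2 ratios 0.55 against 0.29 with cadmium). These rates therefore do not give the power or error rate of the real fit. Alternatives were other scalings, filters, DESeq2 1.42.0, a replicate block, single libraries left out and copies reduced. Described by name are loci on different arms in all 4 libraries, loci with a shifted 5′ end, loci split by group, the 10 most abundant shifted-end loci and those past the test. Members and lists were chosen with earlier results of these data known. The marker miRNAs miR-451 and miR-223 are not analysed here.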

Additional observations from a re-analysis of the deposited data

How the results depend on the processing

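With at least 2 bases counted as a differing end, 35 loci differed, 21 of them with shifted ends and 14 on different arms. Leaving out 1 library gave 46 to 53 differing loci, 35 to 40 with shifted ends and 11 to 13 on different arms. By the 5′ end alone 3 loci split by group, and by the 3′ end alone 9. No such split can be recomputed with a library left out, since each group has 2. The loci that passed in edgeR numbered 65 with total counts (57 higher, 8 lower), 57 with upper-quartile scaling (48 and 9), 48 with DESeq2 size factors (21 and 27) and 8 to 122 with a library left out (105 without control 1, 122 without control 2, 8 without cadmium 1, 9 without cadmium 2; the lone library of a group is then assumed to vary like the other group). The median log2 fold change of all loci was 0.08, and 0.38, 0.32 and -0.01 under these 3 scalings. Shifted-end loci that passed numbered 10, 7 and 4 under them, 0 of 13 at 10 CPM, 2 in DESeq2 and 1 to 16 with a library left out. Same-numbered libraries correlated at 0.0954 in their deviations, so the numbers were not taken as pairs. With a replicate block 19 loci passed, 1 of them with shifted ends. Of all loci, 27 of 129 passed in edgeR at 10 CPM and 38 of 277 in the DESeq2 test.

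Of 166 recomputed fold changes at 13 named shifted-end loci, 15 changed sign. With total counts these were miR-125a (0.15), miR-128-1 (0.29) and miR-128-2 (0.27), with upper-quartile scaling 0.13, 0.25 and 0.23, and without control 1 0.45, 0.29 and 0.27 (-0.57, -0.26 and -0.28 without control 2). miR-128-1 was 0.016 with the block and 0.01 without cadmium 1. miR-196b was -0.033 with DESeq2 size factors, -0.031 in the DESeq2 test and -0.07 without cadmium 2, with a range from -0.12 to 0.26 when a library was left out. The cause was not tested. miR-491 passed in 12 of 12 alternatives (log2 1.67 to 2.19), miR-1191 in 8 of 12 and miR-7670 in 6 of 12; both calls were also lost with the replicate block (edgeR adjusted p = 0.063 and 0.0977). Of the loci not called, miR-23a passed in 6 of 13, miR-148b in 4, miR-26b in 3 and miR-93 in 3. miR-125a, miR-1843a, miR-128-1 and miR-128-2 passed only in fits with a control library left out. There the miR-128 copies rose without control 1 and fell without control 2. Testing only loci with identical windows, added after seeing the data, gave 33 of 235; keeping 1 locus from each set of copies in the comparison of levels was also added then. Most differing windows were at loci with a mean below 10 CPM (68.3% of the 41 shifted-end loci, 75.0% of the 12 on different arms). Windows also differed at abundant loci such as miR-93, miR-26b and miR-151. The part of low counts in the windows was not tested.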
